A study of Mus musculus with 3 samples.

Results

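Vascular endothelial nuclei of the mouse heart were described from their accessible chromatin, in hearts of mice given sunitinib and in hearts of mice given vehicle. A nucleus was counted as vascular endothelial when at least 4 of its fragments fell on 14 marker genes (Cdh5, Flt1, Kdr, Tie1, Egfl7, Fabp4, Ptprb, Cldn5, Esam, Aqp7, Ccdc85a, Gpihbp1, Clec14a and Sox17) and these made up at least 2 times the share that they take of all vehicle fragments. This rule kept 696 of 3871 sunitinib nuclei and 542 of 2702 vehicle nuclei, 1238 of 6573 in all. The hearts were wild type and snap-frozen, and nuclei had been profiled for RNA and chromatin together (single-nucleus multiome). RNA reads were not used here. The sample titles carry 3 months, and whether that is an age or a treatment time is not stated. The series also has a library from mice given sunitinib plus Yoda1, an activator of the stretch-gated channel PIEZO1, in which 1 of 12 called nuclei met the rule, and it was not used further. Each group is 1 library, and how many mice each holds is not stated. No difference could therefore be set against the variation between animals, no test was possible, and every 95% interval covers counting error at most.

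Endothelial cells line the blood vessels and, in the heart, form the dense capillary bed that brings fatty acids to the muscle. They are kept alive and made to grow by vascular endothelial growth factor (VEGF), whose main receptor is the tyrosine kinase KDR (VEGFR2), while FLT1 (VEGFR1) binds the same ligand tightly and limits its supply. Sunitinib is a tumour drug that blocks the VEGF receptors and several other tyrosine kinases, and harm to the heart is a known side effect. Angiopoietins act through TEK (TIE2), Notch signals set arterial fate, and blood flow is read through channels and receptors such as PIEZO1. In the assay used here a transposase cuts open chromatin, and each unique fragment between 2 cuts is counted once. Accessibility is not expression: an open gene need not be transcribed.

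The endothelial nuclei were the deeper part of both libraries. They held 3033246 fragments under sunitinib and 1967662 under vehicle. The median endothelial nucleus had 3313.5 fragments under sunitinib (range 1019 to 33304) and 2811 under vehicle (range 1003 to 37917), against 2166 and 1924 in the other nuclei. Of the endothelial fragments 30.6% lay within 1 kb of a transcription start site under sunitinib and 28.8% under vehicle, and 36.4% and 36.3% were short, below the length wrapped around a nucleosome. A nucleus typically showed 5 of the 14 markers under sunitinib (median; quartiles 4 and 7) and 4 under vehicle (quartiles 4 and 6), and 97.1% and 95.4% showed at least 3. Just inside the rule, 98 sunitinib and 97 vehicle nuclei had exactly 4 marker fragments. Just outside it, 77 sunitinib and 119 vehicle nuclei had 3 such fragments with a sufficient share. Of the nucleus barcodes, 22 were shared between the libraries.

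Endothelial nuclei made up 17.98% of the sunitinib nuclei (exact Clopper-Pearson interval 16.8 to 19.2) and 20.1% of the vehicle nuclei (18.6 to 21.6). Nuclei that met the same rule for 10 T lymphocyte markers took 18.4% of sunitinib nuclei and 3.85% of vehicle nuclei. Outside the lymphoid rules the endothelial share was 22.5% (21.1 to 24.04) of 3090 sunitinib nuclei and 21.6% (19.98 to 23.2) of 2512 vehicle nuclei. The intervals overlapped on either base, which does not show that the shares are equal. With endothelial nuclei that also met a non-endothelial rule left out, the intervals did not overlap. The shares of all called nuclei were then 14.3% (13.2 to 15.5) under sunitinib and 17.0% (15.6 to 18.5) under vehicle. The rule finds deeper nuclei more readily: among nuclei with at least 3000 fragments it kept 29.0% under sunitinib and 28.7% under vehicle, and with every nucleus thinned to 1000 fragments 3.95% and 3.92%. Nuclei that met no rule at all made up 44.8% and 52.9%, so the other nuclei, against which the endothelial nuclei are set below, may also hold endothelial nuclei too shallow to meet the rule.

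Each marker was also read without using it. The markers were chosen with earlier results of these data known, so higher values in this reading were in part fixed beforehand. Each of the 14 markers in turn was left out of the rule and then counted in the nuclei that the remaining 13 had chosen. All 14 were more accessible in the chosen than in the other nuclei, in both libraries, with every interval above 0. The log2 ratio ran between 1.51 and 2.24 for sunitinib (median 1.83) and between 1.00 and 1.62 for vehicle (median 1.30). Clec14a, an endothelial lectin-like surface protein, was highest under sunitinib at 2.24 (1.91 to 2.57), with 1.34 (0.91 to 1.77) under vehicle. Gpihbp1, which anchors lipoprotein lipase to the capillary wall, was highest under vehicle at 1.62 (1.18 to 2.05), with 2.15 (1.77 to 2.55) under sunitinib. Fabp4, a fatty acid carrier of capillaries, was lowest in both, at 1.51 (1.16 to 1.85) and 1.00 (0.56 to 1.42). The comparison nuclei differ between the libraries, since T lymphoid nuclei are more frequent among them under sunitinib and the rule markers stood at 408.1 CPM (fragments counted per 1000000 fragments of the same nuclei) in them there and 518.1 under vehicle. What part this has in the higher sunitinib values was not tested.

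**Figure D1:**
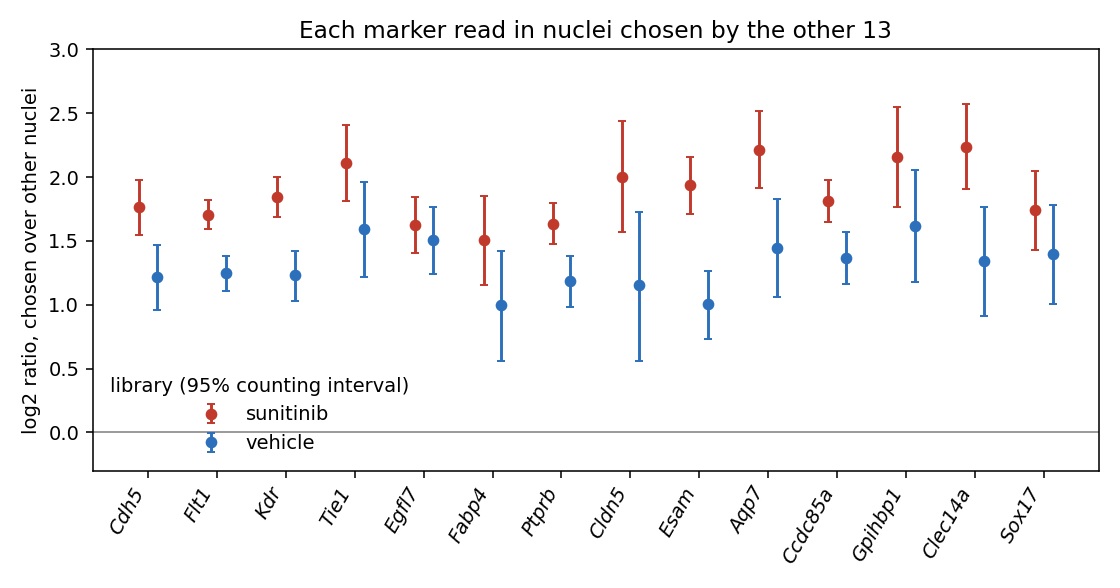
Log2 ratio (y axis) of the accessibility of each of the 14 markers (x axis) in nuclei chosen by the other 13 over all other nuclei, for the sunitinib library (red, left of each pair) and the vehicle library (blue), with 95% counting intervals. All 28 points lie above 0, the lowest at 1.00 for Fabp4 under vehicle.

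Other classes were present as a minority. Of the endothelial nuclei 20.4% (17.5 to 23.6) also met the rule of a non-endothelial class under sunitinib and 15.3% (12.4 to 18.6) under vehicle. The T lymphoid rule was also met by 24 and 6 endothelial nuclei, the B lymphoid rule by 52 and 37, the myeloid rule by 29 and 22, the endocardial rule by 28 and 33 and the cardiomyocyte rule by 12 and 10. Cardiomyocyte markers as a sum of 10 genes stood at 215.6 CPM in sunitinib and 223.1 in vehicle endothelial nuclei, against 723.2 and 777.3 in the other nuclei. Endocardial markers, 8 genes of the inner lining of the heart chambers, stood at 479.4 and 519.9 CPM, close to the 471.3 and 566.2 of the other nuclei. A pair of other classes had sums above those of the other nuclei in both libraries. B lymphocyte markers stood at 475.7 CPM in sunitinib and 474.2 in vehicle endothelial nuclei, against 335.6 and 403.3 in the other nuclei, log2 ratios of 0.50 (0.41 to 0.59) and 0.23 (0.12 to 0.34). Most of this sum was the gene Ebf1, at 410.1 and 394.4 CPM, against 223.9 and 289.2 in the other nuclei. All other B lymphocyte markers were below the other nuclei under sunitinib, and most were under vehicle. Epicardial and mesothelial markers stood at 170.1 and 152.0 CPM, against 86.6 and 127.6, ratios of 0.97 (0.81 to 1.13) and 0.25 (0.06 to 0.45), and 16 and 4 endothelial nuclei met that rule too. Most of that sum was the gene Wt1, at 107.5 and 104.2 CPM, against 30.5 and 53.1 in the other nuclei. The part of these classes in the results was not tested one by one.

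T lymphocyte markers were the sum that differed most in favour of sunitinib within the endothelial nuclei, at 272.6 CPM under sunitinib and 219.6 under vehicle. That is a log2 ratio of 0.31 (0.14 to 0.48), and 10 of 10 markers were higher. Most of the sum came from Cd247, a T cell receptor chain gene, with 146.4 CPM under sunitinib and 128.6 under vehicle, while Cd3e had 13 fragments under sunitinib and 4 under vehicle. Over the other nuclei Cd247 stood at 0.54 (0.32 to 0.76) under vehicle and -0.24 (-0.39 to -0.09) under sunitinib. A window inside it (chr1:165819001-165819500) was among the most endothelial, at 2.69 under vehicle and 2.76 under sunitinib. Whether the Cd247 fragments come from T cells was not tested. The endocardial sum was the only other one whose interval did not include 0, at -0.12 (-0.23 to -0.00) with 1 of 8 markers higher. In the other nuclei the T lymphocyte sum stood at 721.4 CPM under sunitinib and 321.5 under vehicle. The part of T cell DNA in the results that follow was not tested beyond leaving out the nuclei that met the T lymphoid rule. That gave 20 genes higher and 18 lower past 1.5-fold of 6411 measured, against the 19 and 18 of 6719 given below.

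Beyond the markers, the gene by gene profile of the endothelial nuclei was the same kind in both libraries. Each gene body, with 2 kb upstream added, was counted, and endothelial nuclei were set over the other nuclei of their own library. Of 12824 protein-coding genes with at least 100 vehicle fragments and 30 expected in each set of nuclei, the 14 markers left out, 117 (0.912%) were at least 2-fold more accessible in the vehicle endothelial nuclei, and 460 (3.59%) in the sunitinib endothelial nuclei. All 117 vehicle genes were above 0 in the sunitinib library, which had no part in picking them. The share of all 12824 genes above 0 is not given here. Of the 117, 97 again reached 2-fold, against 3.59% of all 12824. The median log2 ratio of the 117 was 1.54 under sunitinib and 1.19 under vehicle. Endothelial nuclei are defined by the markers in both libraries, so genes that go with the markers are found by construction, and the second library shows only that they recur.

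The 12 highest of these genes in the vehicle library cover several sides of endothelial biology. Among transport proteins, the water channel gene Aqp1 (chr6:55336432-55348555, plus strand, mm10) had 69.6 CPM in sunitinib and 74.2 in vehicle endothelial nuclei, and a log2 ratio over the other nuclei of 1.97 (lower bound 1.68) and 1.64 (1.30). Car4, a carbonic anhydrase on the capillary surface, stood at 1.95 and 1.49. Kcna5, a voltage-gated potassium channel gene, stood at 2.405 (lower bound 2.06) and 1.498 (1.08). Sox18, a transcription factor of endothelial fate related to the marker Sox17, stood at 1.99 and 1.499. Myct1, a membrane protein gene of endothelium, stood at 1.95 and 1.53, and the protocadherin gene Pcdh17 at 1.95 and 1.54. Btnl9, of the butyrophilin family, stood at 1.76 and 1.46, Rassf9 at 1.88 and 1.48 and Nepn, a proteoglycan gene, at 1.92 and 1.66. Gm9922 (1.89 and 1.52) lies across the promoter of Lmo7, and the reads cannot be told apart.

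The remaining pair of the 12 were lower against the other nuclei under sunitinib. Gimap6, a GTPase gene also used by lymphocytes, stood at 1.02 (lower bound 0.72) under sunitinib and 1.54 (1.14) under vehicle, and in the other nuclei its own sunitinib over vehicle ratio was 0.48 (0.15 to 0.82). Igfbp3, which binds insulin-like growth factors, stood at 1.09 and 1.53, and had too few fragments to be measured between treatments.

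**Figure D2:**
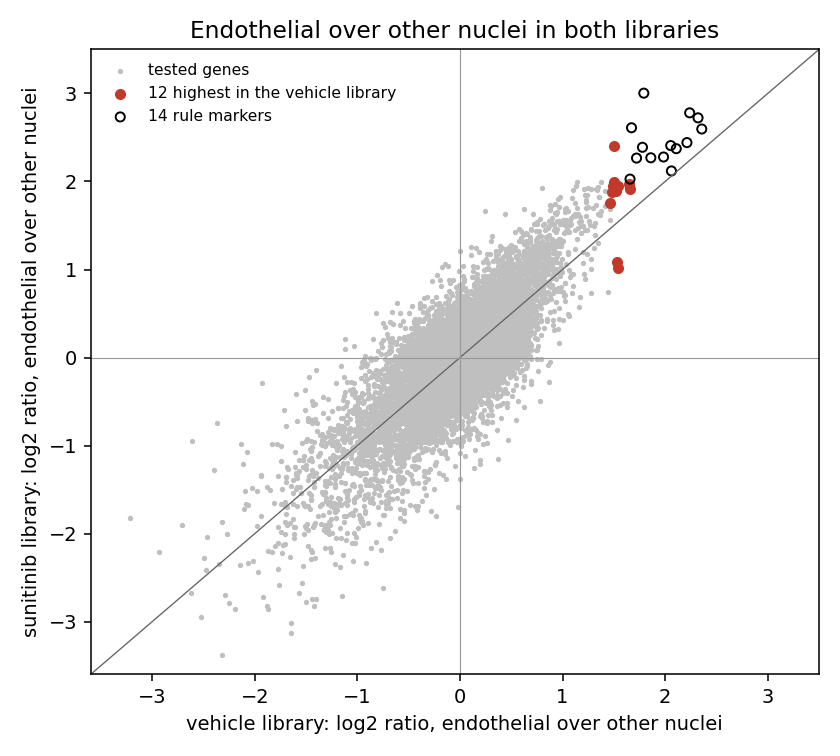
Log2 ratio of endothelial over other nuclei for the 12824 genes (grey), in the vehicle library (x axis) and the sunitinib library (y axis), with the diagonal of equal ratios. The 14 rule markers (open circles) and the 12 genes highest in the vehicle library (red) lie above 1 on both axes, and 2 of the 12, Gimap6 and Igfbp3, lie below the diagonal.

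Endothelial nuclei were also set against those of 2 other vessel and lining classes, endocardial and mural. Lymphatic endothelial nuclei, 36 under sunitinib and 30 under vehicle, were not compared. There were 110 sunitinib and 128 vehicle nuclei that met the endocardial rule but not the endothelial one. The endothelial rule includes capillary lipid genes such as Fabp4 and Gpihbp1, and nuclei that met it were left out of both comparison sets. Higher sums of genes that go with the markers are therefore partly built into these comparisons. Genes of capillary lipid uptake (14 genes, such as the fatty acid transporter gene Cd36) summed to 1184 CPM in endothelial and 475.8 in endocardial nuclei under sunitinib, a log2 ratio of 1.31 (1.12 to 1.51). The vehicle sums were 1097 and 565.6 and the ratio 0.95 (0.78 to 1.13). Basement membrane genes stood at 0.82 (0.70 to 0.95) and 0.52 (0.41 to 0.63) over endocardial nuclei, arterial genes at 0.77 (0.62 to 0.92) and 0.41 (0.28 to 0.54), and endothelial transcription factors at 0.66 (0.58 to 0.75) and 0.45 (0.37 to 0.53). Venous genes hardly separated endothelial from endocardial nuclei, at 0.20 (0.03 to 0.38) under sunitinib and -0.14 (-0.30 to 0.03) under vehicle. Vwf and Plvap, which are used as endocardial markers here, belong to both lists. Against nuclei of the mural rule (128 and 83), which marks pericytes and smooth muscle, the capillary list stood at 0.98 (0.84 to 1.14) and 0.87 (0.68 to 1.07). Basement membrane genes, which mural cells also use, separated them least, at 0.38 (0.28 to 0.47) and 0.21 (0.10 to 0.33).

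Promoters showed the same order. RefSeq promoters (build GRCm38.p6, 250 bases before to 50 after the start) were matched for 16428 genes, and 6304 had at least 20 fragments in vehicle endothelial nuclei. Promoters entered on that count alone, and the ranking used it again, so high vehicle ratios are partly built in. Of the 100 most endothelial in the vehicle library, 99 were above 0 in the sunitinib library, with a median log2 ratio of 1.496 under sunitinib and 1.43 under vehicle. The median of all 6304 under sunitinib was 0.30, so most tested promoters were above 0 there as well. The short motif AGGAAG, read on either strand and bound by ETS factors, a family that includes ERG and FLI1, was present in 52% of these 100, against 30.04% of all 6304 and 33.8% of all matched promoters. The related CGGAAG was present in 22%, against 41.0% and 23.0%. The hexamer AGATAA of GATA factors was in 11%, against 3.89% of the 6304 and 9.27% of all matched promoters. AACAAT of SOX factors was in 10%, against 4.30% and 8.93%, and GGAATG of TEAD factors in 18%, against 10.03% and 13.03%. Of the other strings searched, TGANTCA of AP-1 was in 9%, against 3.52% and 6.92%, CCACCC of KLF factors in 43%, against 35.7% and 33.6%, and the E-box CACGTG in 7%, against 11.2% and 8.17%. All were read on both strands, and matches may overlap. The forkhead string GTAAACA was in 2%, against 2.22% and 2.93%. The 100 promoters had a G and C content of 60.3% and the 6304 of 63.3%. A match is a string of letters and no evidence of binding.

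Sequences of 6 promoters follow because they have the highest ratio, in the vehicle library and outside the rule markers (Slc9a3r2, Rasgrp3, Kcna5 and Fam181b), or belong to markers (Tie1 and Clec14a), and show how unevenly the ETS letters fall. Each is the 250 bases before the RefSeq start, 5′ to 3′ on the gene's strand, with AGGAAG or CGGAAG on either strand in capitals.
Tie1: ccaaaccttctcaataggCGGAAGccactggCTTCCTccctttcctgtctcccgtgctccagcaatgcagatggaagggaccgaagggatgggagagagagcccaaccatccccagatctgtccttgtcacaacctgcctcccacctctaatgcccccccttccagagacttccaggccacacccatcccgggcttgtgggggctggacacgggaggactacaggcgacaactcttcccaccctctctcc
Clec14a: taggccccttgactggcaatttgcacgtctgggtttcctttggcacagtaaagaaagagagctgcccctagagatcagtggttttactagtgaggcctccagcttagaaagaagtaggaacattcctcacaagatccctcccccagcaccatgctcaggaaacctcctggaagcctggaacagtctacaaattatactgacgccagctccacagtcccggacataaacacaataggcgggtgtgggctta
Slc9a3r2: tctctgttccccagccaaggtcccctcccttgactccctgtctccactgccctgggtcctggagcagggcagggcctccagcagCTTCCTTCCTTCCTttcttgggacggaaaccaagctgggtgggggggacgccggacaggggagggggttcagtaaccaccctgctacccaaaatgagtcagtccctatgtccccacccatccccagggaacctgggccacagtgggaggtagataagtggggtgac
Rasgrp3: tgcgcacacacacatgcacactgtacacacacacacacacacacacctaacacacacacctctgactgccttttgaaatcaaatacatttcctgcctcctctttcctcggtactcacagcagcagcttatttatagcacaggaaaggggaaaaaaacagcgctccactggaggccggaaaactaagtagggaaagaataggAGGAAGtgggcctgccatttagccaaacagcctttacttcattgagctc
Kcna5: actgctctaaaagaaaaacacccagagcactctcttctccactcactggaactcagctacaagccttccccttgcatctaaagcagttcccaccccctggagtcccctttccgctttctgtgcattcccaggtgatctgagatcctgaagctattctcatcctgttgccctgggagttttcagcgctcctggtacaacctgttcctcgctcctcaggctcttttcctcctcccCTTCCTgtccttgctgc
Fam181b: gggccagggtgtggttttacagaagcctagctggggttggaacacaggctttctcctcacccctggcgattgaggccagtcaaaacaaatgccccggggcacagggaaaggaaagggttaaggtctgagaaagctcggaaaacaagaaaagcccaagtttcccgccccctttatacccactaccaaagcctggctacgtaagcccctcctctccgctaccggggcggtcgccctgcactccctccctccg
Tie1, a receptor of the angiopoietin pathway (chr4:118489850-118490099, minus strand), has 2 matches, 1 of each hexamer. Its promoter had 89 fragments in sunitinib and 56 in vehicle endothelial nuclei, and log2 ratios over the other nuclei of 2.75 and 2.76. Slc9a3r2, a scaffold protein gene (chr17:24644958-24645207, minus strand), has 3 overlapping matches in a CT-rich run. Rasgrp3, which encodes an exchange factor for Ras (chr17:75435655-75435904, plus strand), and Kcna5 (chr6:126535556-126535805, minus strand) have 1 each. Clec14a (chr12:58269259-58269508, minus strand) and Fam181b (chr7:93079629-93079878, plus strand) have none in this window. The Fam181b ratio rests on 18 sunitinib and 22 vehicle endothelial fragments, and was 1.63 (0.62 to 2.64) and 2.21 (1.21 to 3.28). The promoter ratio of Clec14a over the other nuclei was 3.73 (3.11 to 4.44) under sunitinib and 2.005 (1.36 to 2.66) under vehicle. The promoter fragments of Clec14a and Tie1 helped to choose the nuclei, so their ratios are not to be ranked against the others.

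Among single windows, the share at promoters depended on how many cut ends were asked for. Of 11947 windows of 500 bp with at least 40 cut ends in vehicle endothelial nuclei, 76.2% were within 1 kb of a start site, but only 11.7% of the 1000 windows that were most endothelial in the vehicle library. Windows entered on their vehicle endothelial ends alone, and the ranking used the same ends. High endothelial ratios in the vehicle library are therefore partly built in. Of the 1000 windows, 963 touch no counted interval of a rule marker. Under sunitinib 962 of these 963 were above 0 and 942 at least 2-fold more accessible in endothelial nuclei, with a summed log2 ratio of 2.04 (2.03 to 2.06). With the marker windows kept in, the sum was 2.07. Of all 11947 windows, 10407 were above 0 under sunitinib and 2532 at least 2-fold, with a summed log2 ratio of 0.45. Being above 0 was therefore common to most windows. With at least 80 ends instead, 80.5% of the 1000 highest were promoters and the summed ratio was 0.52. The highest window in the vehicle library lies inside Elk3, an ETS factor gene, within 1 kb of an annotated start (chr10:93285501-93286000), with 54 ends in sunitinib and 42 in vehicle endothelial nuclei, against 33 and 5 ends in the other nuclei. The 54 ends came from 31 nuclei with at most 1 fragment each, so both ends of a fragment were often counted. Such ends are not independent, and the intervals of windows are narrower than counting error. Window sequences were not used here.

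The direct question of the design is what differed in endothelial chromatin under sunitinib. Differences were small. Of 6719 measured genes, those with 200 or more fragments when the libraries are added and 30 expected in each, 19 (0.283%) were at least 1.5-fold more accessible under sunitinib and 18 (0.268%) at least 1.5-fold less, 37 in all (0.551%). The median log2 ratio was 0.05, with 5% and 95% points of -0.27 and 0.36, and 61.3% of genes were above 0. The typical interval reached 0.34 to either side, so most single genes cannot be told from no difference at this depth. In the other nuclei the median was -0.01. Those nuclei also differed in make-up: 687 of 3175 met the T lymphoid rule under sunitinib and 98 of 2160 under vehicle. What part this has in their ratios, given beside single genes below, was not tested. The split depends on what the counts are divided by: per fragment at start sites, rather than per fragment in all, 4 genes were higher and 43 lower past 1.5-fold, and 41.8% were above 0. That scaling shifts the median of all genes by -0.08.

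The 12 highest genes were led by Rp1l1, P4ha1 and Lfng. Rp1l1, known as a photoreceptor gene (chr14:63992506-64035025, plus strand), had 159 fragments in sunitinib and 56 in vehicle endothelial nuclei, or 52.4 and 28.5 CPM, a log2 ratio of 0.87 (0.43 to 1.35). Only 5 and 2 of these lay at its start sites, so the difference lies away from its start sites. In the other nuclei Rp1l1 stood the other way, at -0.55 (-0.88 to -0.22). At least 1 Rp1l1 fragment was found in 18.1% of sunitinib and 9.04% of vehicle endothelial nuclei, with at most 3 and 4 per nucleus.

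P4ha1, the catalytic subunit of the prolyl hydroxylase that collagen needs and a target of the hypoxia response (chr10:59323296-59373304, plus strand), had 379 fragments in sunitinib and 162 in vehicle endothelial nuclei, or 124.9 and 82.3 CPM, a log2 ratio of 0.60 (0.33 to 0.88). At its start sites alone the ratio was 0.59 (0.22 to 0.97). It also stood higher in the other nuclei, at 0.37 (0.21 to 0.54). Sowahc, on the same chromosome (chr10:59221953-59226434), was likewise higher in endothelial nuclei, at 0.59 (0.23 to 0.97), and in the other nuclei, at 0.51 (0.28 to 0.75).

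Lfng, a glycosyltransferase that tunes how Notch receptors answer their ligands (chr5:140607320-140615545, plus strand), had 177 fragments in sunitinib and 69 in vehicle endothelial nuclei, and was found in 21.1% and 11.6% of them. These are 58.4 and 35.1 CPM, a log2 ratio of 0.73 (0.33 to 1.16), against 0.15 (-0.11 to 0.41) in the other nuclei. Gpr146, an orphan receptor gene (chr5:139377697-139396415, plus strand), had 440 and 192 fragments and a log2 ratio of 0.57 (0.32 to 0.82), against -0.09 (-0.25 to 0.08) in the other nuclei. Prelp, a matrix proteoglycan gene, stood at 0.70 (0.28 to 1.14) in endothelial and -0.45 (-0.73 to -0.16) in the other nuclei. Pml, which builds a class of nuclear bodies, stood at 0.69 (0.27 to 1.13), Dgke, a diacylglycerol kinase gene, at 0.59 (0.28 to 0.92) and Map4k2, a stress kinase gene, at 0.58 (0.28 to 0.90). Gm45799 (0.67), Fam160a1 (0.62) and Abtb2 (0.53) complete the 12. Of the 12, 5 were above 0 in the other nuclei too.

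**Figure D3:**
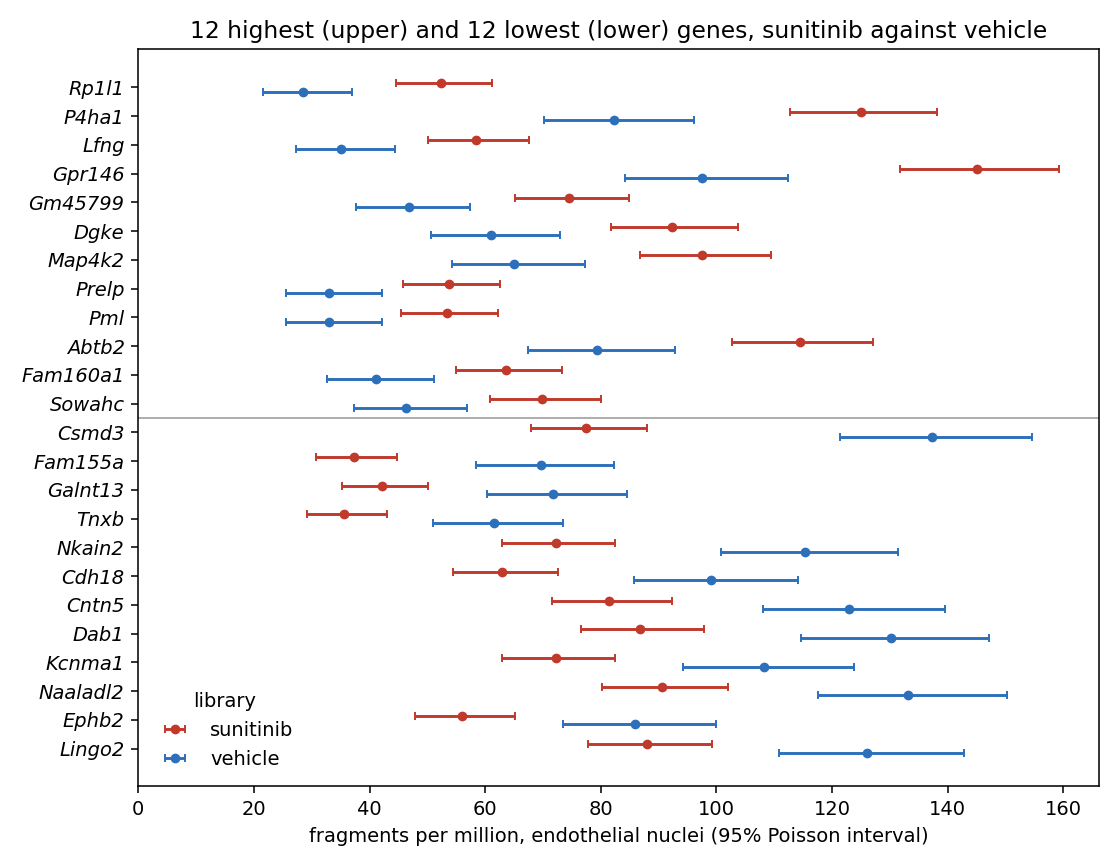
CPM (x axis, 95% Poisson intervals) in the endothelial nuclei of the sunitinib library (red, upper of each pair) and the vehicle library (blue) for the 12 highest genes (above the line) and the 12 lowest (below it). Gpr146 has the highest sunitinib level, at 145.1 against 97.6 under vehicle, and Csmd3 the highest vehicle level, 137.2, against 77.5 under sunitinib.

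The 12 lowest genes were longer than the 12 highest. They were Csmd3, Fam155a, Galnt13, Tnxb, Nkain2, Cdh18, Cntn5, Dab1, Kcnma1, Naaladl2, Ephb2 and Lingo2, several of them genes of neuronal adhesion. Their median length was 1025 kb, against 31.7 kb for the 12 highest and 45.6 kb for all measured genes. Csmd3 (chr15:47580637-48792063, minus strand) had 235 fragments in sunitinib and 270 in vehicle endothelial nuclei, or 77.5 and 137.2 CPM, a log2 ratio of -0.82 (-1.08 to -0.57). Of these fragments 2 in each library lay at its start sites. Fam155a stood at -0.90 (-1.27 to -0.53) with 113 and 137 fragments, and Galnt13 at -0.76 (-1.12 to -0.41) with 128 and 141. Cntn5 and Naaladl2 had no fragment at their start sites in either library. Csmd3, Cdh18, Dab1, Galnt13 and Lingo2 had equal counts there in both libraries, at most 3 in each. For all of these the sign at start sites comes from the larger sunitinib total alone, so it adds nothing to the ranking. Genes with equal or no counts there could enter only the lowest set. The contrast in length between the 12 lowest and 12 highest may therefore be partly built in.

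A pair of the 12 is nearer to vascular biology. Tnxb, the matrix protein tenascin-X (chr17:34670535-34719815, plus strand), had 108 fragments in sunitinib and 121 in vehicle endothelial nuclei, a log2 ratio of -0.79 (-1.18 to -0.40), and was lower in the other nuclei too, at -0.60 (-0.80 to -0.39). Ephb2, a receptor for ephrin-B ligands (chr4:136647539-136835988, minus strand), had 170 and 169 fragments, a log2 ratio of -0.62 (-0.93 to -0.30), and was higher in the other nuclei, at 0.34 (0.20 to 0.48).

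Low accessibility at the start site went with the lower ratios across the genome. The 444 measured genes with under 20 start-site fragments over both libraries had a median log2 ratio of -0.11 and a median length of 252 kb, and 17 of the 18 lower genes were among them, against 2 of the 19 higher ones. The 6050 genes with at least 20 in each library had a median of 0.06, and 14 were higher and 0 lower past 1.5-fold. No test was possible with 1 library per group. These values move with the share of fragments at start sites, which was 30.6% in sunitinib and 28.8% in vehicle endothelial nuclei. Its part in the lower ratios was not tested.

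**Figure D4:**
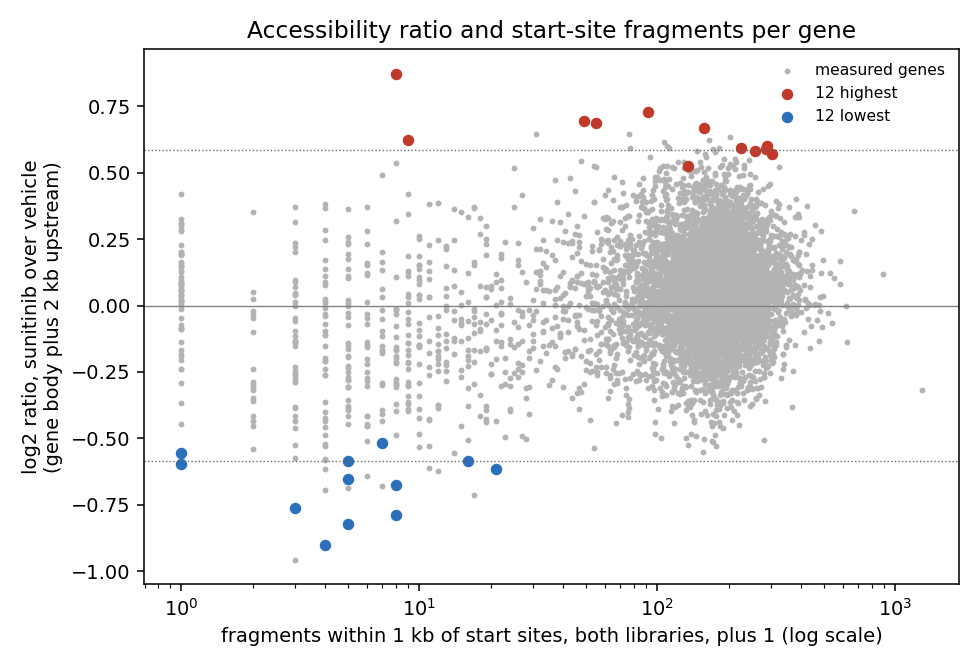
Log2 ratio of sunitinib over vehicle in endothelial nuclei (y axis) against the fragments within 1 kb of the gene's start sites (x axis, log scale, 1 added) for the 6719 measured genes, with the 12 highest (red), the 12 lowest (blue) and dotted lines at 1.5-fold. The 12 lowest all have at most 20 start-site fragments over both libraries, whereas all but Rp1l1 and Fam160a1 of the 12 highest have more. Genes with equal or no start-site counts could enter only the lowest set.

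Among the kinases that sunitinib blocks, the VEGF receptor genes differed little. Kdr had 856 fragments in sunitinib and 511 in vehicle endothelial nuclei, 282.2 and 259.7 CPM, a log2 ratio of 0.12 (-0.04 to 0.28). Flt1 had 1531 and 1069 fragments, 504.7 and 543.3 CPM, and a ratio of -0.11 (-0.22 to 0.01). Both helped to choose the nuclei. Read in nuclei chosen without it, Kdr stood at 0.30 (0.12 to 0.49) and Flt1 at -0.01 (-0.15 to 0.13). Across the 14 markers read in this way 11 were above 0 (61.3% of all measured genes were), with a median of 0.17, and 5 intervals lay above 0 (7.66% of all measured genes): Kdr, Clec14a at 0.51 (0.14 to 0.91), Cldn5, a tight junction protein gene, at 0.56 (0.05 to 1.12), Aqp7, a glycerol channel gene, at 0.46 (0.12 to 0.81) and Esam, a junction adhesion molecule gene, at 0.26 (0.00 to 0.52).

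Kit, the stem cell factor receptor gene, was the kinase gene furthest below 0 among those measured. It had 181 fragments in sunitinib and 157 in vehicle endothelial nuclei, 59.7 and 79.8 CPM, a log2 ratio of -0.42 (-0.74 to -0.10), against 0.06 (-0.18 to 0.31) in the other nuclei. Flt4, the VEGFR3 gene of lymphatic vessels, stood at 0.16 (-0.14 to 0.46) and Pdgfra, a fibroblast receptor gene, at 0.23 (-0.12 to 0.59). Too few fragments were found to measure Csf1r (21 and 28), Ret (63 and 57), Flt3 (59 and 44) and Pdgfrb (47 and 39), receptors mostly of other cells. Piezo1, the channel that the third group of the study targets (chr8:122481698-122551329, minus strand), had 623 fragments in sunitinib and 342 in vehicle endothelial nuclei, 205.4 and 173.8 CPM. Its log2 ratio was 0.24 (0.05 to 0.44), against -0.16 (-0.29 to -0.02) in the other nuclei, and it lay between -0.06, after thinning to 1000 fragments per nucleus, and 0.27 over 13 other settings.

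Gene lists of endothelial biology, counted over gene bodies with 2 kb upstream, leaned slightly above the genome as a whole. Of the 250 genes of 20 lists, 171 were measured, and 124 of these (72.5%) were above 0, against 61.3% of all measured genes, with a median of 0.10 against 0.05. Intervals lay above 0 for 24 of the 171 and below 0 for 3, against 7.66% and 3.04% of all measured genes. Only P4ha1 and Lfng passed 1.5-fold, against 0.551% of all measured genes. The median was above that of all genes in 14 of 20 lists, and with counts taken per fragment at start sites the median of all genes was -0.03 and that of 6 lists turned below 0, as a shift common to all genes brings about for medians near 0: flow and stretch sensing (-0.00), glycolysis (-0.01), angiopoietin genes (-0.03), mesenchymal change (-0.04), cell cycle (-0.04) and inflammation (-0.05). Against the shifted median of all genes the count stayed at 14 of 20. Within 1 kb of start sites, where 2043 genes were measured, the count was 10 of 20. It was 11 with fragments below nucleosome length, 11 with at least 100 fragments per gene and 15 with at least 400. In the other nuclei most list medians were below 0, such as -0.39 for capillary lipid uptake and -0.37 for junctions, against -0.01 for all measured genes. Those of cell cycle (0.07), inflammation (0.02) and FOXO and glucocorticoid genes (0.02) were above 0 there. None of these differences could be tested.

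Notch genes included Lfng. Of 12 measured, 10 were above 0, with a median of 0.17. Hey1 and Hes1, transcription factors that Notch switches on, stood at 0.39 (0.06 to 0.73) and 0.33 (0.03 to 0.63). The receptor genes Notch1 and Notch4 stood at 0.18 (0.02 to 0.35) and 0.11 (-0.15 to 0.37), and the ligand genes Dll4, Dll1, Jag1 and Jag2 between 0.04 and 0.17. Mfng, a fringe enzyme gene like Lfng, stood at -0.20 (-0.56 to 0.17). At the start sites of the same 12 genes the median was 0.15.

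The hypoxia list had the highest median, 0.18, with 7 of 10 above 0. After P4ha1 came Hif1a, the oxygen-regulated factor, at 0.43 (0.05 to 0.82), and Epas1, its endothelial relative HIF-2α, at 0.21 (0.06 to 0.36) with 984 fragments under sunitinib and 552 under vehicle. Bnip3 (-0.24), Ankrd37 (-0.12) and Vegfa (-0.04), which hypoxia also induces, were below 0 with intervals that included 0. For glycolysis 6 of 10 were above 0 with a median of 0.08, and Pkm, the pyruvate kinase gene, stood at 0.42 (0.08 to 0.78).

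Among the receptors, ligands and targets of the TGF-beta and BMP pathway 16 of 20 were above 0, with a median of 0.13. Skil, a repressor of SMAD signals, had 282 sunitinib and 133 vehicle fragments and a log2 ratio of 0.46 (0.16 to 0.77), and the ligand gene Bmp6 had 677 and 348, a ratio of 0.33 (0.15 to 0.53). The co-receptor gene Eng stood at 0.25 (0.04 to 0.46) and the target gene Id1 at 0.36 (0.01 to 0.73), while the receptor gene Bmpr2 stood at -0.12 (-0.33 to 0.09). In the other nuclei Bmp6 was lower under sunitinib, at -0.43 (-0.58 to -0.28), where the median of this list was -0.15.

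Junction genes were above 0 in 11 of 14, with a median of 0.11. Jam2, a junction adhesion molecule gene (chr16:84774123-84825928, plus strand), had 530 sunitinib and 255 vehicle fragments, 174.7 and 129.6 CPM, a log2 ratio of 0.43 (0.21 to 0.65). In the other nuclei it stood at -0.41 (-0.60 to -0.22), where the median of the junction list was -0.37. The Jam2 fragments came from 328 of the sunitinib and 179 of the vehicle endothelial nuclei. Jup, the plakoglobin gene, stood at 0.34 (0.12 to 0.56), whereas Jam3 stood at -0.26 (-0.51 to -0.01). Of the flow and stretch sensors 12 of 16 were above 0, with a median of 0.08. Itgb1, an integrin chain gene, stood at 0.33 (0.03 to 0.63) and Nos3, the nitric oxide synthase of endothelium, at 0.32 (-0.02 to 0.68), while the flow-induced factor gene Klf2 stood at -0.11 (-0.46 to 0.24).

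Vessel identity lists differed little. For arterial genes 7 of 8 were above 0 (median 0.13), for venous genes 4 of 5 (median 0.13) and for capillary lipid uptake 7 of 9 (median 0.14). Emcn, a sialomucin gene of veins and capillaries, was the venous gene furthest from 0, with 244 sunitinib and 113 vehicle fragments and a log2 ratio of 0.48 (0.16 to 0.82). Cd36 stood at 0.14 (-0.03 to 0.32), Pparg, a regulator of fat handling, at 0.18 (-0.02 to 0.39) and Cavin2, a coat protein gene of caveolae, at 0.30 (-0.03 to 0.64). Rgcc, a capillary gene that blocks the cell cycle, stood at -0.19 (-0.48 to 0.11).

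Of the transcription factors that set endothelial fate, 17 of 23 were above 0 with a median of 0.12. Ets1 stood at 0.17 (0.03 to 0.32), Erg at 0.16 (0.01 to 0.32) and Fli1 at 0.09 (-0.06 to 0.25), all of the ETS family. In accessibility per kb of the counted interval, a level and not a difference, Klf4 (12.2 CPM per kb under sunitinib and 10.5 under vehicle) and Klf2 (12.1 and 13.1) were the most open of this list. Mecom, a far longer gene, had 0.986 and 0.906. A short gene is mostly promoter on this scale.

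Among the remaining lists, those of YAP and TEAD and of FOXO and glucocorticoid genes had medians below 0. For VEGF ligands and co-receptors 4 of 5 were above 0 (median 0.09), with Nrp1 at 0.11 (-0.04 to 0.25) and Nrp2 at 0.09 (-0.07 to 0.26). For basement membrane genes 10 of 13 were above 0 (median 0.10), with the collagen gene Col4a2 at 0.10 (-0.02 to 0.23). The tip cell list had 5 of 6 above 0 (median 0.10), and of the angiopoietin list only Tek, at 0.22 (0.02 to 0.41), and Svep1, at -0.12 (-0.52 to 0.30), were measured. Cell cycle genes had 7 of 8 above 0 but a median of 0.04. Inflammation and interferon genes had 4 of 5 above 0 with a median of 0.04, and 11 of that list's 16 genes, among them Icam1, Vcam1 and Sele, had too few fragments. Genes of the change of endothelium into mesenchyme had 2 of 3 measured above 0, with a median of 0.05. YAP and TEAD genes had 5 of 11 above 0 (median -0.02), with Axl at -0.31 (-0.66 to 0.05). FOXO and glucocorticoid genes had 4 of 9 above 0 (median -0.04). Of these Foxo3 stood at 0.32 (0.11 to 0.54) and Zbtb16, a factor induced by glucocorticoids, at -0.14 (-0.26 to -0.01).

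**Figure D5:**
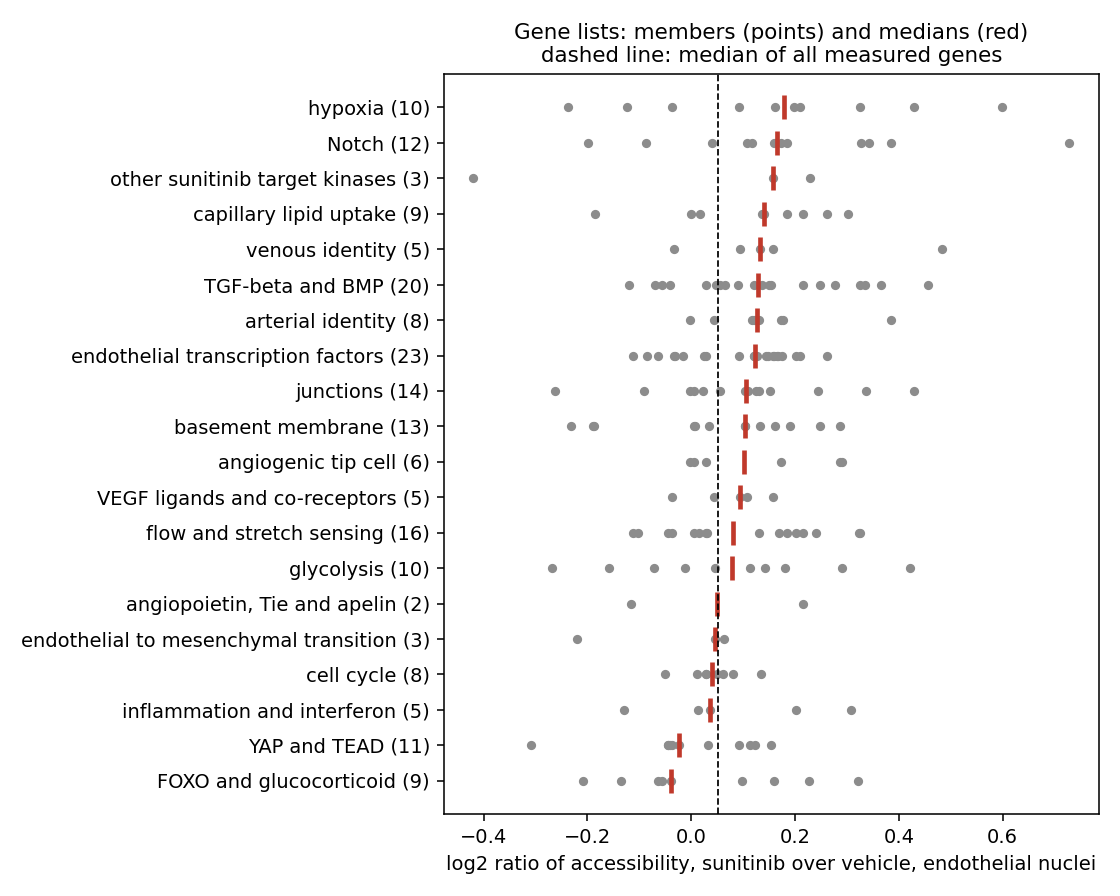
Log2 ratio of accessibility of sunitinib over vehicle in endothelial nuclei (x axis) for each measured member (grey points) of 20 gene lists (y axis, number measured in brackets), with each list's median (red) and the median of all 6719 measured genes, 0.05 (dashed). List medians run between -0.04 for FOXO and glucocorticoid genes and 0.18 for hypoxia genes.

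Single windows differed more than whole genes, on far fewer counts. Of 12737 windows of 500 bp with at least 100 cut ends over both libraries, 967 (7.59%) were at least 1.5-fold higher under sunitinib and 258 (2.03%) at least 1.5-fold lower. The median log2 ratio was 0.10 in 3059 windows away from promoters and 0.08 in 9678 promoter windows. The windows named here were picked after their values were seen. Their intervals take both ends of a fragment as separate counts and are too narrow. A window 37585 bp from the start of Fas, a death receptor gene (chr19:34328001-34328500), had 100 ends in 57 sunitinib nuclei and 21 ends in 13 vehicle nuclei, a log2 ratio of 1.60 (0.94 to 2.38). In the other nuclei it had 45 and 48 ends. A window inside Dlc1 (chr8:36637001-36637500) had 136 ends in 81 sunitinib nuclei and 32 ends in 20 vehicle nuclei, 1.45 (0.90 to 2.07). A window inside Smpdl3b, a lipid enzyme gene of membranes (chr4:132747501-132748000), had 148 and 40 ends, 1.25 (0.75 to 1.81). Picked on sunitinib endothelial counts, these 3 windows are high in endothelial over other sunitinib nuclei by choice. In the vehicle library their log2 ratios over the other nuclei were 0.50 (-0.33 to 1.25), 1.16 (0.45 to 1.83) and 0.45 (-0.13 to 0.99). Of the lower windows, one at the promoter of Ftl1, the ferritin light chain gene (chr7:45459001-45459500), had 46 ends under sunitinib and 65 under vehicle, -1.12 (-1.70 to -0.56), against 0.44 (0.07 to 0.83) in the other nuclei.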

How the data were processed

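Transposase fragments of single nuclei were measured in 1 sunitinib and 1 vehicle library. Per the file headers the authors made them with cellranger-arc 2.0.0 against mm10. The deposited value is a count of read pairs per unique fragment and barcode, not normalized, with all barcodes kept, and each fragment was counted once here. The libraries hold 23653823 and 18704581 fragments. A nucleus needed at least 1000 fragments on chromosomes 1 to 19 and X and a start-site enrichment of at least 4 (ends within 50 bp over ends at 1900 to 2000 bp), giving 3871 and 2702 nuclei. No doublet caller was run, and leaving out nuclei that met the rule of another class was an alternative. Genes are those of GENCODE M21, counted over the gene body plus 2 kb upstream and divided by the total of those nuclei. Ratios on the log2 scale had 0.5 added to each count and exact conditional 95% intervals, computed with Python 3.11.15, numpy 2.4.6, scipy 1.17.1 and pandas 2.3.3. Genes named are the 12 highest and 12 lowest by the interval bound nearest 0 with the same sign at start sites, the kinases, Piezo1, the 14 markers, 12 vehicle-picked endothelial genes and leading list members. Further list members and windows were named after their values were seen. Members, markers and lists were chosen with earlier results of these data known. Other thresholds, thinning to equal depth, fragment classes and scalings were tried as alternatives. Counting and intervals were tested on simulated data.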

Additional observations from a re-analysis of the deposited data

How the results depend on the processing

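With 1 library per group no difference has a replicate check, and depth limits single genes. No paired analysis was possible because each group has 1 library. Settings that require more of a nucleus moved the endothelial shares most: at least 3000 fragments gave 29.0% under sunitinib and 28.7% under vehicle, at least 6 marker fragments and 4 times the share 3.93% and 3.55%, leaving out possible doublets 14.3% and 17.0%, and thinning to 1000 fragments 3.95% and 3.92%. The 12 vehicle-picked genes, summed, stood at 1.82 over the other sunitinib nuclei, at 1.62 with 3000 fragments, at 1.13 with 6 marker fragments and 4 times the share, and at 2.04 against nuclei of another class alone, a comparison chosen after seeing the data. Genes past 1.5-fold were 19 higher and 18 lower of 6719 measured. They were 3 and 0 of 171 with 6 marker fragments and 4 times the share, and 0 and 0 of 5 after thinning (no p-value exists without replicates). Within 1 kb of start sites they were 24 and 1 of 2043, and with fragments below nucleosome length 7 and 7 of 1321. Per fragment at start sites they were 4 and 43 of 6719. With at least 100 fragments they were 120 and 95 of 11356, and with at least 400 they were 2 and 5 of 2087. Among genes with at least 20 start-site fragments in each library, a setting chosen after seeing the data, they were 14 and 0 of 6050. Lists above the median of all genes, 14 of 20, were 2 with 6 marker fragments and 4 times the share and 0 after thinning, where few members were measured. They were 10 within 1 kb of start sites, 11 with fragments below nucleosome length, 11 with at least 100 fragments and 15 with at least 400. Of 90 named genes, 60 kept their direction and 39 stayed within their counting interval after thinning, 73 and 56 with 6 marker fragments and 4 times the share, and 75 and 69 within 1 kb of start sites. Under the other 10 settings 78 to 90 kept it. Among genes past 1.5-fold, Ephb2 (0.43, -0.84 to 1.90, 24 fragments) and Galnt13 (0.61, -1.82 to 4.18, 7 fragments) had the opposite sign after thinning, with intervals that include 0. The most endothelial windows summed to 0.52 with at least 80 ends and to 2.23 for the 300 highest, and to 2.04 without windows on rule markers, a setting chosen after seeing the data. Stricter rules for nuclei kept fewer nuclei and left fewer genes measured. The cause of the changes between settings was not tested.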
